A study of Homo sapiens with 4 samples.

Results

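The genes described here encode the enzymes of glycolysis, the pentose phosphate pathway and the citrate cycle, with the enzymes that carry pyruvate into the cycle and the kinases that regulate these steps. They were taken by symbol, 49 genes in all, and each was read through the probe set with its single gene symbol that had the highest mean over all arrays. Of the 49, 47 had such a probe set for the gene itself, GAPDH was read only by the control probe set at the 5' end of its transcript, and FH was not analysed here. After the dimmest 30% of genes were left out, 43 of the 49 were among the 12401 genes tested, of 17716 genes with a probe set. None of the 47 had a second probe set, so no value could be checked against another stretch of the same transcript. For none of the 47 was it established which stretch the listed probe set reads. The probe set may not read the main transcript, a doubt held in particular for HK2, TPI1, PGLS, IDH2 and SUCLG1. The same question is not settled for the others, ENO1 and PGK1 among them.

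Total RNA was measured on 4 Affymetrix expression arrays, 2 of QK-knockdown Hs683 cells transduced with miR-20a and 2 of QK-knockdown Hs683 cells transduced with miR-NT, a scrambled microRNA without a target. Hs683 is an established human glioma cell line, and both groups carried the knockdown of QK, now named QKI, which encodes an RNA-binding protein of glial cells. The labels give neither the time after transduction, nor the clones used, nor whether each replicate was a culture of its own. RNA of whole cultures was hybridised, so fewer cells expressing a gene and less of its RNA per cell cannot be told apart.

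Glycolysis splits glucose into pyruvate in the cytosol, and lactate dehydrogenase turns pyruvate into lactate. The pentose phosphate pathway branches off at glucose 6-phosphate and supplies NADPH and ribose. The pyruvate dehydrogenase complex feeds acetyl-CoA into the citrate cycle in mitochondria, unless pyruvate dehydrogenase kinases switch it off. Gliomas, like many tumours, are known for high glucose uptake and lactate release, and several glycolytic genes are textbook targets of the hypoxia-inducible factors. MicroRNAs pair through a short seed with target transcripts and lower their stability or translation.

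The sequence of the microRNA added to the cells is shown with that of miR-17, the member of the same seed family after which the family is named, both from RefSeq (GRCh38.p14). Capitals mark the seed, bases 2 to 8. Of 2545 mature human microRNAs in the table, 8 share this seed. The miR-20a-5p sequence lies at chr13:91351072-91351094 and that of miR-17-5p at chr13:91350618-91350640, both on the plus strand, and the 2 differ at 2 bases, both outside the seed.
hsa-miR-20a-5p: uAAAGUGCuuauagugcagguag
hsa-miR-17-5p: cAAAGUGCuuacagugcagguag

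Array medians over all probe sets lay between 6.43 and 6.45 on the log2 scale, and the interquartile ranges were 3.06 and 2.92 with miR-20a and 3.14 and 3.03 with miR-NT. QKI measured 7.52 and 7.08 with miR-20a and 8.14 and 7.92 with miR-NT, and no array without its knockdown was analysed here. Among 8 glial markers VIM, CD44 and SOX2 were kept in the test, while GFAP, at 4.31 and 4.81 with miR-20a and 4.54 and 4.21 with miR-NT, was among the dim genes, as were S100B, AQP4, SLC1A3 and NES. Of 3 measured markers of the oligodendrocyte lineage 1, MBP, was kept in the test. Markers of other cell types kept in the test were 4 of 4 neuronal, 2 of 4 immune, 1 of 3 endothelial and 0 of 3 epithelial ones. The 4 immune markers averaged 6.02 and 6.11 with miR-20a and 6.02 and 5.95 with miR-NT, and their part in the results was not tested. Across the 12401 genes limma called 1 lower (0.00806%), the cargo receptor TMED2, and 0 higher (0%) at an adjusted p under 0.05.

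None of the 43 tested carbohydrate and citrate cycle genes passed that limma test. Most had lower values with miR-20a: the log2 fold change (miR-20a minus miR-NT) was negative in 32 and positive in 11, at a median of −0.11, where 53.8% of all tested genes were below 0, with a median of −0.02. The difference was small for most of them, since 31 of the 43 lay within 0.25 of 0 on the log2 scale. At an unadjusted limma p under 0.05, 10 were lower, where 13.2% of all tested genes were, and 1, PGLS, was higher, where 5.82% of all were. The 2 groups of arrays did not overlap in 19 genes with lower values (31.1% of all tested genes) and 5 with higher values (25.1%). Together these 24 made 55.8% of the 43 genes, close to the 56.2% over all tested genes. After quantile normalization the split of the 43 was 25 below 0 and 18 above, where 45.1% of all genes were below 0. Their median was then −0.05, where that of all genes was 0.03. The share of all genes below 0 rose as more dim genes were dropped. It was 49.5% with none dropped and 57.3% without the dimmest 50%, where 30 of the 39 listed genes kept were below 0. The listed genes were not compared with genes of equal brightness, so how much of their split goes with brightness was not tested. Without miR-20a replicate 1 the median of the 43 was −0.17, and without miR-20a replicate 2 it was −0.06. Some of the 43 passed in these fits, as did more of all genes than with all 4 arrays. These fits have 1 array in the miR-20a group and take its spread from the miR-NT arrays and from the spread shared over all genes. Their SE differed little between the genes named below, so passing in them is not read as a result.

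**Figure D1:**
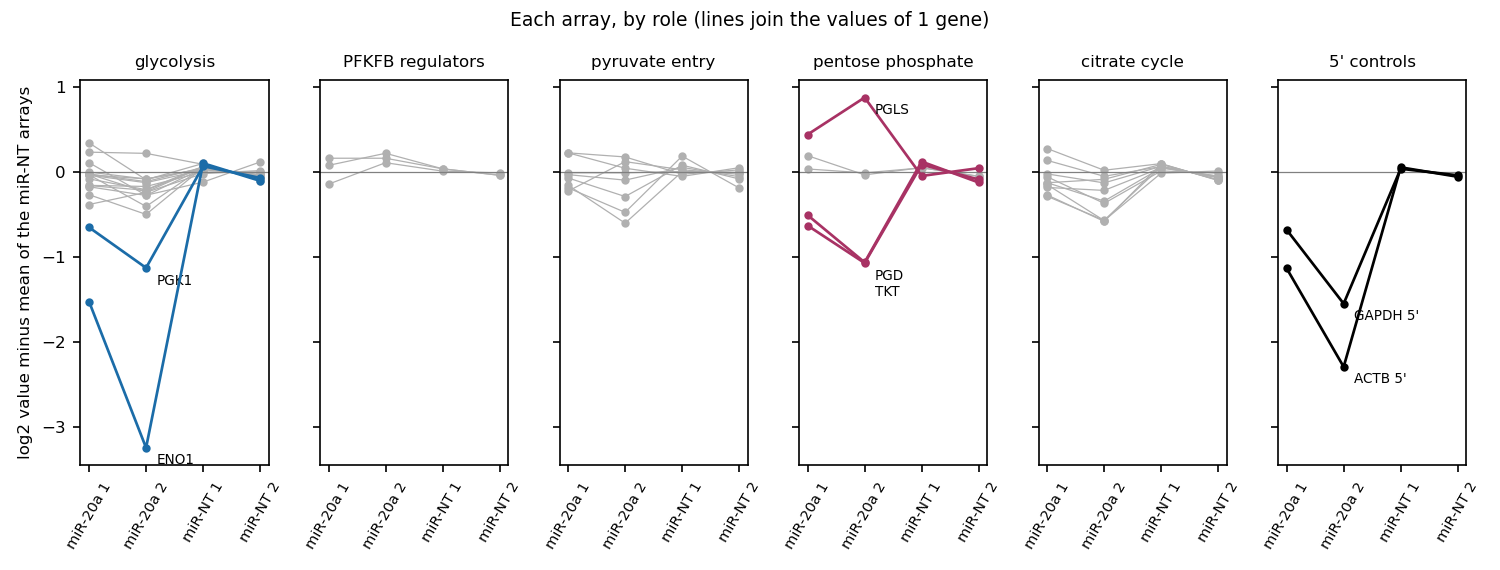
Value of each tested gene on each array, as the log2 value minus the mean of the 2 miR-NT arrays, in panels by role, with the 5' control probe sets of GAPDH and ACTB at the right; a line joins the values of 1 gene, and genes with a log2 fold change beyond 0.5 in size are coloured and named. ENO1, PGK1, PGD and TKT lie below 0 on both miR-20a arrays and lower on replicate 2, as do both controls, whereas PGLS lies above 0.

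In glycolysis, 15 of 17 tested genes had lower values with miR-20a and 2 had higher values, with a median log2 fold change of −0.14. The lowest was ENO1, which encodes the ubiquitous enolase that makes phosphoenolpyruvate. ENO1 measured 9.80 and 8.08 with miR-20a and 11.42 and 11.21 with miR-NT. Both miR-20a arrays were below both miR-NT arrays, and replicate 2 was 1.72 below replicate 1 on the log2 scale. The log2 fold change of ENO1 was −2.38 (SE 0.46, 95% interval −3.44 to −1.32), 5.21-fold lower, with limma adjusted p = 0.0963. That SE was the highest of all 12401 tested genes, so the size of the fold change is uncertain. Leaving out miR-20a replicate 2 gave a log2 fold change of −1.52 and leaving out replicate 1 gave −3.24. ENO1 was the only one of the 43 genes at least 2-fold lower, where 0.532% of all tested genes were, and none was at least 2-fold higher (0% of all).

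The other enolases stayed closer to the miR-NT arrays. ENO2, the neuronal enolase, measured 9.14 and 9.08 with miR-20a and 9.35 and 9.25 with miR-NT, without overlap between the groups (log2 fold change −0.19, SE 0.10, limma adjusted p = 0.332). ENO3, the muscle enolase, overlapped between the groups, at 6.56 and 6.17 with miR-20a and 6.33 and 6.56 with miR-NT.

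PGK1, the phosphoglycerate kinase that makes the first ATP of the pathway, measured 10.84 and 10.37 with miR-20a and 11.56 and 11.42 with miR-NT. The groups did not overlap, and replicate 2 was again the lower of the miR-20a arrays, by 0.48. The log2 fold change of PGK1 was −0.89 (SE 0.16, 95% interval −1.26 to −0.52), 1.85-fold lower, with limma adjusted p = 0.0949. Leaving out miR-20a replicate 2 gave −0.65 and leaving out replicate 1 gave −1.13. GPI, which isomerises glucose 6-phosphate to fructose 6-phosphate, measured 12.31 and 12.07 with miR-20a and 12.63 and 12.52 with miR-NT. Its groups did not overlap either, and its log2 fold change was −0.38 (SE 0.11, limma adjusted p = 0.170), or −0.27 without miR-20a replicate 2. ALDOC, the brain-type aldolase, measured 7.83 and 7.97 with miR-20a and 8.19 and 8.23 with miR-NT (log2 fold change −0.31, SE 0.10, limma adjusted p = 0.193). In ALDOC, unlike the genes above, miR-20a replicate 1 was the lower array.

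PKM, the pyruvate kinase, measured 13.88 and 13.78 with miR-20a and 14.10 and 14.01 with miR-NT, without overlap (log2 fold change −0.22, 95% interval −0.46 to 0.01, limma adjusted p = 0.277). LDHA, the lactate dehydrogenase subunit that favours lactate formation, measured 13.68 and 13.66 with miR-20a and 13.83 and 13.83 with miR-NT. The 4 LDHA values formed 2 close pairs, lower with miR-20a, with a log2 fold change of −0.16 (95% interval −0.38 to 0.06, limma adjusted p = 0.363). That of its partner LDHB was −0.08, with groups that did not overlap. PGAM1, a phosphoglycerate mutase, and ALDOA, the most widespread aldolase, overlapped between the groups, with log2 fold changes of −0.04 and −0.06.

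At the entry of the pathway, the hexokinases HK1 and HK2, which phosphorylate glucose, overlapped between the groups. HK1 had a log2 fold change of −0.07. HK2 measured 6.79 and 6.36 with miR-20a and 6.55 and 6.35 with miR-NT, with a log2 fold change of 0.13 (95% interval −0.24 to 0.49). It turned to −0.09 without miR-20a replicate 1, and its probe set may not read the main transcript. The phosphofructokinase subunits PFKL, PFKM and PFKP, which commit sugar to glycolysis, were at −0.14, −0.13 and −0.22 on the log2 fold change scale, and the groups did not overlap in PFKL alone of the 3. TPI1, the triose phosphate isomerase, was the other glycolytic gene with a higher value, at 7.88 and 7.87 with miR-20a and 7.74 and 7.56 with miR-NT (log2 fold change 0.23, limma adjusted p = 0.288), with the same limit on its probe set. PGAM2, the muscle mutase, was left out as dim, at 5.15 and 5.30 with miR-20a and 5.28 and 5.21 with miR-NT.

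The bifunctional PFKFB enzymes set the level of fructose 2,6-bisphosphate, which activates phosphofructokinase. PFKFB3 measured 9.91 and 9.91 with miR-20a and 9.79 and 9.71 with miR-NT, and PFKFB2 5.50 and 5.64 with miR-20a and 5.46 and 5.38 with miR-NT. In both, the miR-20a arrays lay above the miR-NT arrays, with log2 fold changes of 0.16 (limma adjusted p = 0.371) and 0.15 (limma adjusted p = 0.425). For PFKFB2 it was 0.08 without miR-20a replicate 2. PFKFB2 lay close to the dimmest mean kept in the test, 5.46. PFKFB4 overlapped, at 8.58 and 8.83 with miR-20a and 8.74 and 8.71 with miR-NT (log2 fold change −0.02, or 0.07 after quantile normalization).

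The pentose phosphate pathway held values in both directions, with 2 of 5 genes below 0, 3 above and a median log2 fold change of 0.01, or 0.14 after quantile normalization. PGD, the 6-phosphogluconate dehydrogenase that makes NADPH, measured 10.76 and 10.32 with miR-20a and 11.48 and 11.31 with miR-NT. TKT, the transketolase of the non-oxidative branch, measured 10.88 and 10.32 with miR-20a and 11.50 and 11.26 with miR-NT. In both genes the groups did not overlap and miR-20a replicate 2 was the lowest array. The log2 fold change was −0.85 for PGD (SE 0.15, 95% interval −1.21 to −0.49, limma adjusted p = 0.0949) and −0.78 for TKT (SE 0.18, 95% interval −1.21 to −0.36, limma adjusted p = 0.119). Without miR-20a replicate 2 these were −0.63 for PGD and −0.51 for TKT.

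PGLS, the lactonase that acts just before PGD, had the highest log2 fold change of the 43 genes, on a probe set that may not read its main transcript. It measured 7.40 and 7.84 with miR-20a and 6.92 and 7.01 with miR-NT. Both miR-20a arrays lay above both miR-NT arrays, replicate 2 by more, and the log2 fold change was 0.66 (SE 0.15, 95% interval 0.31 to 1.00), 1.58-fold higher, with limma adjusted p = 0.116. It was 0.44 without miR-20a replicate 2. TALDO1, the transaldolase, overlapped at 13.46 and 13.41 with miR-20a and 13.47 and 13.37 with miR-NT. So did RPIA, the ribose 5-phosphate isomerase, at 9.46 and 9.23 with miR-20a and 9.32 and 9.21 with miR-NT. Their log2 fold changes were 0.01 and 0.08.

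**Figure D2:**
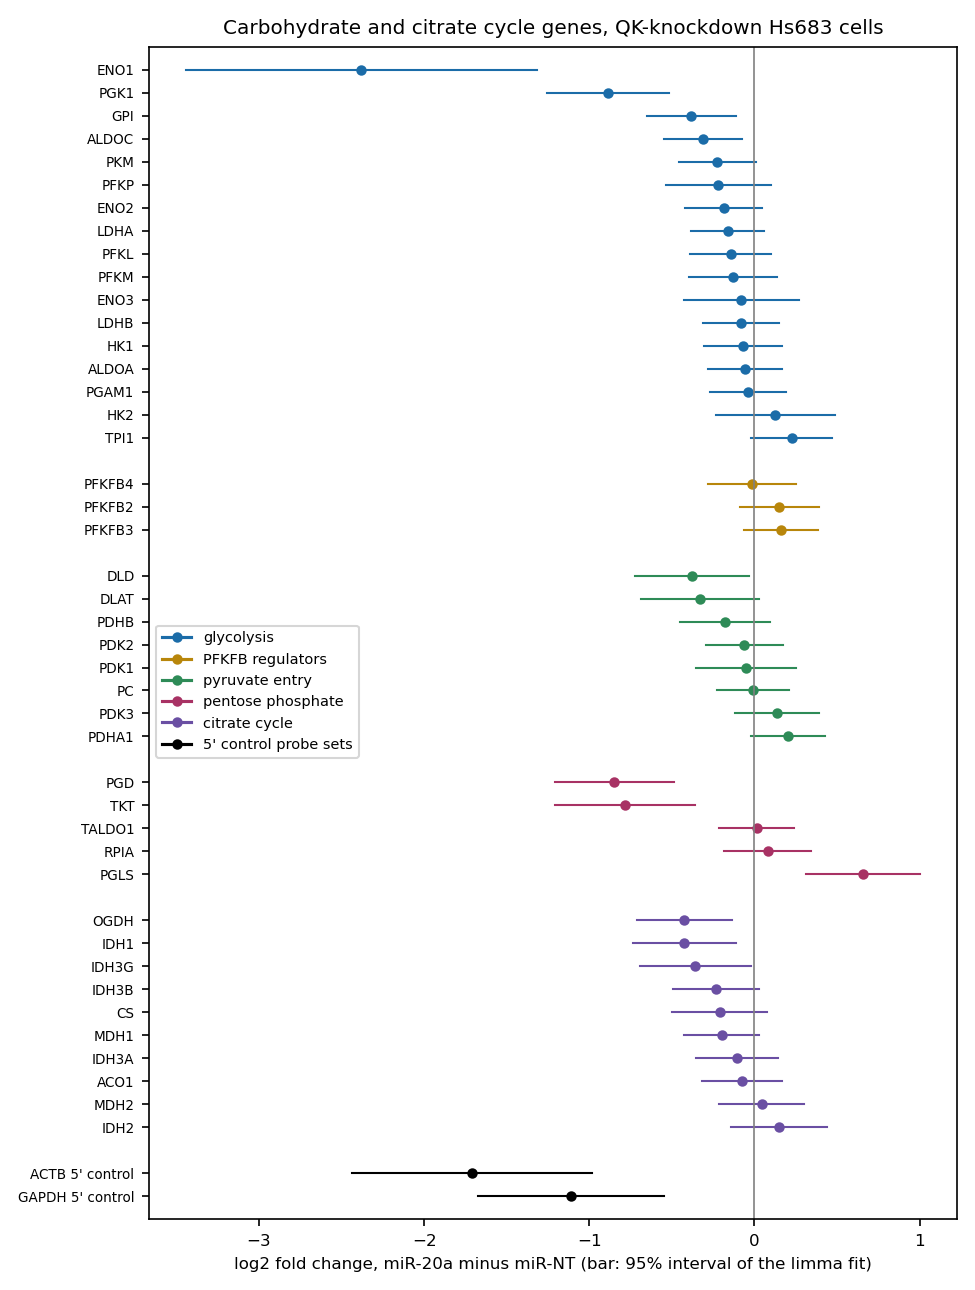
Log2 fold change of each tested gene, miR-20a minus miR-NT, with the 95% interval of the limma fit, by role and ordered by size; the 2 black points at the bottom are the 5' control probe sets. The intervals of 10 genes lie below 0 and that of PGLS above 0, before adjustment over all genes.

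Of the 8 tested genes at the entry of pyruvate into the citrate cycle, 6 were lower with miR-20a and 2 higher, at a median log2 fold change of −0.06. The subunits of the pyruvate dehydrogenase complex were split. DLD, its dihydrolipoamide dehydrogenase, measured 11.24 and 10.80 with miR-20a and 11.40 and 11.39 with miR-NT, without overlap (log2 fold change −0.38, SE 0.15, limma adjusted p = 0.239). Without miR-20a replicate 2 it was −0.15. DLAT, the acetyltransferase core, measured 8.92 and 8.64 with miR-20a and 9.30 and 8.92 with miR-NT (log2 fold change −0.33, limma adjusted p = 0.290), with miR-20a replicate 1 and miR-NT replicate 2 almost equal. Leaving out a miR-NT array gave DLAT −0.14 (replicate 1 out) or −0.52 (replicate 2 out), and leaving out the second miR-20a array gave −0.19. PDHB, the beta subunit of the first enzyme, was at 8.80 and 8.58 with miR-20a and 8.95 and 8.79 with miR-NT (log2 fold change −0.18). Leaving out a miR-20a array gave PDHB −0.07 (replicate 2 out) or −0.29 (replicate 1 out), and leaving out the first miR-NT array gave −0.10. PDHA1, the alpha subunit on which the kinases act, instead lay higher on both miR-20a arrays, at 11.04 and 11.00 against 10.79 and 10.84 with miR-NT (log2 fold change 0.20, 95% interval −0.02 to 0.42, limma adjusted p = 0.295).

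The pyruvate dehydrogenase kinases PDK1, PDK2 and PDK3 overlapped between the groups, with log2 fold changes of −0.05, −0.06 and 0.14. PDK4 was dim and left out, at 4.11 and 4.36 with miR-20a and 3.86 and 4.06 with miR-NT. PC, the pyruvate carboxylase that refills the cycle with oxaloacetate, was the closest to 0 of all 43 genes, with a log2 fold change of −0.01 (95% interval −0.23 to 0.21). Its 4 values, 8.16 and 8.16 with miR-20a and 8.17 and 8.16 with miR-NT, were nearly equal, and the groups did not overlap.

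Of the 10 tested genes listed under the citrate cycle, 8 were lower with miR-20a and 2 higher, at a median log2 fold change of −0.21. The median was −0.08 after quantile normalization. This list includes the cytosolic enzymes IDH1, MDH1 and ACO1, all lower, and other genes of the cycle, such as SDHA and SDHC, are in the second list below. The count and median therefore describe the list, not the whole cycle. OGDH, the 2-oxoglutarate dehydrogenase, measured 9.60 and 9.32 with miR-20a and 9.95 and 9.82 with miR-NT, without overlap (log2 fold change −0.43, SE 0.12, limma adjusted p = 0.164). IDH1, the NADP-dependent isocitrate dehydrogenase of the cytosol, measured 10.91 and 10.60 with miR-20a and 11.27 and 11.08 with miR-NT, also without overlap (log2 fold change −0.42, SE 0.13, limma adjusted p = 0.181). IDH2, its mitochondrial counterpart, overlapped at 6.84 and 6.59 with miR-20a and 6.67 and 6.47 with miR-NT (log2 fold change 0.15, 95% interval −0.14 to 0.44), on a probe set that may not read its main transcript. Without miR-20a replicate 2 the log2 fold changes were −0.28 for OGDH and −0.27 for IDH1.

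The NAD-dependent isocitrate dehydrogenase consists of a catalytic subunit, IDH3A, and the regulatory subunits IDH3B and IDH3G. IDH3G measured 9.69 and 9.27 with miR-20a and 9.82 and 9.85 with miR-NT (log2 fold change −0.36, SE 0.14, limma adjusted p = 0.244). Most of this lay in miR-20a replicate 2, without which the log2 fold change was −0.15. IDH3B measured 10.26 and 10.05 with miR-20a and 10.44 and 10.34 with miR-NT (log2 fold change −0.23, limma adjusted p = 0.301), or −0.12 without miR-20a replicate 2. Neither subunit overlapped between the groups. IDH3A overlapped, at 8.94 and 8.98 with miR-20a and 9.16 and 8.98 with miR-NT.

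CS, the citrate synthase that opens the cycle, and MDH1, the malate dehydrogenase of the cytosol, were lower on both miR-20a arrays than on both miR-NT arrays, with log2 fold changes of −0.21 and −0.20. MDH2, the mitochondrial malate dehydrogenase that closes the cycle, and ACO1, the cytosolic aconitase, overlapped, at 0.04 and −0.07. Of the subunits of succinyl-CoA ligase, SUCLG1 was dim and overlapped between the groups, on a probe set that may not read its main transcript. SUCLG2, also dim and untested, measured 5.13 and 5.04 with miR-20a and 4.59 and 4.75 with miR-NT, without overlap.

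A second list held 44 further genes of these pathways, of which 34 had a probe set and 30 were tested. None passed the limma test over all genes. At an unadjusted p under 0.05, 5 were lower, where 13.2% of all tested genes were, and 2 higher, where 5.82% were. Of the 30, 20 had a log2 fold change below 0 (53.8% of all tested genes), and their median was −0.09. These genes were not compared with genes of equal brightness either. ADPGK, the ADP-dependent glucokinase, had the smallest p, at 6.60 and 6.20 with miR-20a and 7.33 and 7.31 with miR-NT (log2 fold change −0.92, SE 0.14, limma adjusted p = 0.0788). Its limma adjusted p was 0.0494 after median centring and ranged from 1.9e-07 to 0.919 over all alternatives, highest after adjustment for the ACTB 5' signal. ME2, the mitochondrial malic enzyme, measured 8.61 and 8.35 with miR-20a and 9.04 and 8.81 with miR-NT (log2 fold change −0.45, limma adjusted p = 0.164). GPD2, the mitochondrial glycerol 3-phosphate dehydrogenase, measured 5.82 and 5.84 with miR-20a and 6.19 and 6.08 with miR-NT (log2 fold change −0.30, limma adjusted p = 0.193). GLUD1, the glutamate dehydrogenase that feeds 2-oxoglutarate into the cycle, measured 7.99 and 7.82 with miR-20a and 8.35 and 8.14 with miR-NT (log2 fold change −0.34, limma adjusted p = 0.203). In all 4 genes, chosen by the smallest p, the groups did not overlap. The share without overlap was 63.3% of the 30 genes and 56.2% of all tested genes.

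The control probe set at the 5' end of the GAPDH transcript, the only reading of this glycolytic enzyme, measured 13.17 and 12.30 with miR-20a and 13.89 and 13.81 with miR-NT. The 5' control of ACTB, which encodes cytoskeletal actin and no enzyme of these pathways, measured 11.59 and 10.43 with miR-20a and 12.78 and 12.66 with miR-NT. Signal at the 5' end of such abundant transcripts, set against that at the 3' end, is commonly used to judge how intact the RNA and its labelling were. No 3' control was analysed here, so these 5' values do not tell RNA quality from the level of the transcript. In both controls the miR-20a arrays lay below the miR-NT arrays and replicate 2 was the lowest. The log2 fold changes were −1.11 for GAPDH (SE 0.24, limma adjusted p = 0.133 over all probe sets) and −1.71 for ACTB (SE 0.31, limma adjusted p = 0.110). Replicate 2 minus replicate 1 of miR-20a was −0.87 for the GAPDH control and −1.16 for the ACTB control. Over the 43 genes the median of this difference was −0.13, and the lowest values were −1.72 for ENO1 and −0.56 for TKT.

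In 10 of the 11 genes with an unadjusted limma p under 0.05, miR-20a replicate 2 lay farther from the miR-NT mean than replicate 1, with ALDOC as the exception, where 78.7% of all genes at such a p did so. Replicate 2 was below replicate 1 in 37 of the 43 genes within the miR-20a pair and in 36 of the 43 within the miR-NT pair, where the shares over all tested genes were 58.9% and 66.5%. After adjustment for the ACTB 5' signal, 13 of the 43 genes were below 0 and 30 above it, at a median log2 fold change of 0.08, where that of all tested genes was 0.05. In that fit the log2 fold change was 0.16 for ENO1, 0.06 for TKT, −0.17 for PGK1, −0.18 for PGD and 0.01 for PGLS, while that of LDHA was −0.14 and that of ALDOC −0.52. After adjustment for the GAPDH 5' signal the corresponding values were −0.17 for ENO1, −0.05 for TKT, −0.27 for PGK1, −0.27 for PGD and 0.10 for PGLS. The SE of each of these values was 0.25 with the ACTB 5' signal and 0.22 with the GAPDH 5' signal. These SE come almost wholly from the spread shared over all genes and do not measure that of the single gene. Both control signals separated the groups of arrays, so the control signal and the microRNA cannot be told apart in these 4 arrays.

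**Figure D3:**
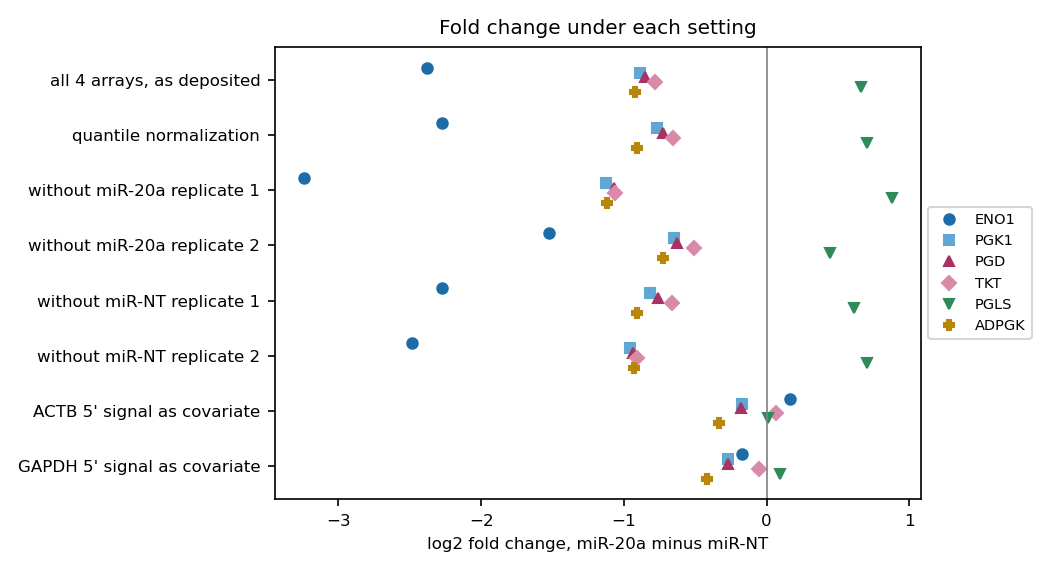
Log2 fold change, miR-20a minus miR-NT, of the 4 lowest tested genes (ENO1, PGK1, PGD, TKT), of PGLS and of ADPGK, with all 4 arrays, after quantile normalization, with each array left out and with each 5' control signal as a covariate. ENO1 lies between −3.24 and −1.52 with an array left out, at 0.16 with the ACTB 5' signal and at −0.17 with the GAPDH 5' signal.

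Sequence before the start of ENO1, PGK1 and PGD is shown, since these had the smallest limma p of the 43 genes and glycolytic promoters are known to carry hypoxia response elements. The cores ACGTG and GCGTG of such elements were searched on both strands in windows of 250 bases before to 50 after each start (RefSeq, GRCh38.p14), where an ACGTG match can overlap its own reverse complement. Windows were found for 47 of the 49 genes, 77 windows in all. ACGTG was in 32.5% of these and in 21.4% of all 35116 windows, and GCGTG in 45.5% of these and in 36.5% of all. Either core was in 61.0% of these and in 48.4% of all, and a gene can have several windows. The window of TKT and that of PGLS held neither core. Each line gives the match nearest to the start that lies before it with 18 bases to either side, on the strand of the gene, with the core in capitals (for PGK1 as its reverse complement). The PGK1 stretch is chrX:78104047-78104087 on the plus strand, the PGD stretch chr1:10399002-10399042 on the plus strand and the ENO1 stretch chr1:8878736-8878776 on the minus strand.
ENO1: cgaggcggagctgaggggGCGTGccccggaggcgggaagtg
PGK1: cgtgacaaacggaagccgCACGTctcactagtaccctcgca
PGD: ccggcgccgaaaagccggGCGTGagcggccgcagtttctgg
The matches describe these letters, no binding was measured here, and a relation of the cores to the fold changes was not tested.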

How the data were processed

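The deposited table held log2 values, a scale judged from their range, for 20323 probe sets on each of 4 arrays. Per the submitters' processing notes the package affy was used, and per the labels' protocols 6 ug of total RNA was turned into biotinylated cRNA; how probe sets were summarised, corrected, normalized and chosen is not given in the sources used here, and the number of arrays limits the precision. Groups were taken from the source names and replicate numbers from the titles; p-values cover only the spread among these 4 arrays, which may be technical.

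Gene names came from the platform annotation, brought to current symbols by the RefSeq gene table (18036 of 18062 with 1 symbol matched). Control probe sets were left out of the gene test. The two-sided moderated test of limma 3.58.1 (R 4.3.3), miR-20a minus miR-NT without a covariate, ran over 12401 genes, Benjamini-Hochberg adjusted, and genes under 0.05 were called; the 2 control probe sets were read from the same fit over all probe sets. The fit had 2 residual and 5.53 prior degrees of freedom. With 2 arrays a group the smallest exact permutation p is 0.333, and none was run. The gene test was checked on simulated arrays with independent noise in each gene. These held no array-wide shift and no deviating array, so the check does not cover such arrays.

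The members and lists were chosen with earlier results of these data known. The genes named with full values were ENO1, GAPDH, PGK1, PKM, LDHA and HK2, the 4 with the smallest p in each role (all where a role had 5 or fewer) and the 4 with the smallest p of the second list; the others were given for completeness, and TMED2 and QKI were named after their values were seen. Alternatives were another normalization, filters, prior, probe set rule, the replicate block, each array left out and a control signal as a covariate.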

Additional observations from a re-analysis of the deposited data

How the results depend on the processing

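None of the 43 listed genes passed the limma test in either direction with all 4 arrays, under any of the alternatives run; ADPGK of the second list had a limma adjusted p of 0.0494 after median centring. With 1 array left out, between 0 and 11 passed lower and between 0 and 1 higher, and over all genes 0 to 1567 passed lower and 0 to 302 higher, most without miR-20a replicate 1. Over all genes the calls, lower and higher, were 6 and 0 after quantile normalization, 45 and 2 after median centring, 4 and 0 with the dimmest 50% left out, 23 and 1 with an intensity trend and a robust prior, 5 and 1 after adjustment for the ACTB 5' signal and 20 and 4 after adjustment for the GAPDH 5' signal, an alternative chosen after seeing the data. With the replicate number as a block 0 genes passed (2127 lower and 1024 higher at an unadjusted limma p under 0.05); deviations of same-numbered arrays correlated at 0.267 across genes, but the labels do not say that a number marks a shared culture or day.

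The median log2 fold change with the ACTB and the GAPDH 5' signal in the model was 0.080 and 0.053 over all 43 genes, 0.060 and 0.032 for glycolysis, −0.048 and −0.022 for the PFKFB enzymes, 0.15 and 0.098 for pyruvate entry and 0.098 and 0.064 for the citrate cycle. For the pentose phosphate genes it was 0.082 with the GAPDH signal and 0.14 after quantile normalization, and for the citrate cycle −0.084 after quantile normalization. That of the PFKFB enzymes was 0.073 with the dimmest 50% left out, where PFKFB2 was not tested, nor were HK2 and GPD2. With an array left out, the medians ranged from −0.17 to −0.056 (all 43), −0.21 to −0.037 (glycolysis), 0.079 to 0.19 (PFKFB), −0.097 to −0.016 (pyruvate entry), −0.036 to 0.062 (pentose phosphate) and −0.28 to −0.13 (citrate cycle).

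Log2 fold changes turned sign with the ACTB 5' signal in the model for ENO1 (0.16), PFKFB2 (−0.048), DLD (0.28), DLAT (0.14), PDHB (0.16), TKT (0.063), OGDH (0.0057), IDH1 (0.057), IDH3G (0.25) and IDH3B (0.097), and with the GAPDH 5' signal for PFKFB2 (−0.022), DLD (0.19), DLAT (0.079), PDHB (0.12), IDH3G (0.17) and IDH3B (0.053). In these fits the SE was 0.25 for each of these genes with the ACTB 5' signal and 0.22 with the GAPDH 5' signal. It comes almost wholly from the spread shared over all genes, so neither the SE nor its p is specific to a gene. The unadjusted limma p of each turned value was 0.267 or above, so its sign is not settled. The log2 fold change of PFKFB4 turned to 0.070 after quantile normalization. With an array left out, the sign turned within the ranges of HK2 (−0.090 to 0.34), PFKFB4 (−0.14 to 0.11) and RPIA (−0.033 to 0.19), each without miR-20a replicate 1, and of TALDO1 (−0.036 to 0.062), without miR-20a replicate 1 or miR-NT replicate 2. The cause was not tested.

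Each gene rests on 1 probe set, 18 of the 43 with a name ending in _s_at and 3 in _x_at, among them those of ENO1 and PGK1 (_s_at) and TKT (_x_at); such probes can match related transcripts. With 2 arrays a group, the 95% intervals extended on average 0.29 to either side on the log2 scale.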
